A study of Homo sapiens with 14 samples.

Results

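Circadian clock genes were followed in U2OS cells, an established human osteosarcoma line, under 9 small molecules and the solvent DMSO. The 10 genes were the period genes PER1, PER2 and PER3, the cryptochromes CRY1 and CRY2, the nuclear receptors NR1D1 and NR1D2, the transcription factor DBP and the basic helix-loop-helix repressors BHLHE40 and BHLHE41. They were taken by symbol, and were chosen with earlier results of these data known. All 10 were found among the 28501 genes of the replicate 1 table and the 25209 genes of the replicate 2 table. All 10 also averaged 1 FPKM or more, the level required for testing, where FPKM is the number of fragments per kilobase of transcript scaled to the library's mapped fragments.

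The replicate 1 table held 10 libraries and that of replicate 2 held 4, each from polyadenylated RNA. DMSO was given at 0.5% by volume, with no treatment time in the labels. The 12 h treatments were 2-PCPA at 1 mM, an inhibitor of the H3K4 demethylase KDM1A (LSD1), BIX-01294 at 5 µM, an inhibitor of the H3K9 methyltransferases EHMT1 and EHMT2, and GSK-J4 at 20 µM, an inhibitor of the H3K27 demethylases of the KDM6 family. The 24 h treatments were GSK343 at 10 µM, an EZH2 inhibitor, rapamycin at 5 µM, an mTOR inhibitor, BRD4770 at 20 µM, an EHMT2 inhibitor, SAHA at 1 µM and VPA at 20 µM, both histone deacetylase inhibitors, and UNC1215 at 50 µM, which binds the methyl-lysine reader L3MBTL3. DMSO, 2-PCPA, GSK343 and rapamycin had 2 libraries each, 1 in each table, and the other 6 compounds had 1. The labels do not say that replicates came from separate cultures, so p-values measure the spread between these libraries, which may be technical. Compound and treatment time cannot be told apart, since each compound was given for a single time, and the labels name no synchronisation of the cells.

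In the mammalian clock, the activators CLOCK (or NPAS2) and ARNTL (BMAL1) bind E-boxes, CACGTG and close variants, and drive transcription of the PER and CRY genes, whose proteins return to the nucleus and block those activators. NR1D1 and NR1D2 (REV-ERB alpha and beta), also E-box targets, repress ARNTL and compete with RORA at its promoter, DBP and its relative TEF activate genes through D-boxes, and NFIL3 represses the same sites. BHLHE40 and BHLHE41 (DEC1 and DEC2) bind E-boxes as repressors, and PER1, PER2 and the DEC genes also respond directly to serum, cAMP or hypoxia signals. In an unsynchronised culture the phases of single cells average out, so a bulk library reports mean levels and not a rhythm.

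The promoter stretches of the genes that stood highest in the BIX-01294 library, and of PER3, which did not, are shown with the letters of the E-box, its variant and the D-box, the kinds of element described above. Not shown are BHLHE41, with an E-box, CRY2, with the variant, and DBP, with none of them. In that library their log2 differences from DMSO were 0.62, -0.13 and -0.64, all under 2-fold. A link between these letters and the BIX-01294 values was not tested. The sequences are RefSeq's, on GRCh38.p14, with matches to these 3 motifs in capitals and all other letters, matches to other motifs included, in lower case, each read 5′ to 3′ in the direction of the gene. Stretches that run into an annotated exon were cut to the part outside it, or to at most 30 bases around the motif. The matches printed for CRY1 and BHLHE40 lie in an annotated exon, as does the BHLHE41 match that is not shown. Those printed for the other genes do not.
PER1, chr17:8152525-8152624, minus strand: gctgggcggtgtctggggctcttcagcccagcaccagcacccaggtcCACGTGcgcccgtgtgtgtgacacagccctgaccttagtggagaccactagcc
PER2, chr2:238288611-238288860, minus strand: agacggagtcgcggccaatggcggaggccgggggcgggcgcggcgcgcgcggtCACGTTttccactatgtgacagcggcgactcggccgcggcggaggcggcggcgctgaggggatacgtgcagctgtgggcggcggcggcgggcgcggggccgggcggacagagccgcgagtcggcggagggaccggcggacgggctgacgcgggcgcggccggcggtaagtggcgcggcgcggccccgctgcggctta
PER3, chr1:7784041-7784290, plus strand: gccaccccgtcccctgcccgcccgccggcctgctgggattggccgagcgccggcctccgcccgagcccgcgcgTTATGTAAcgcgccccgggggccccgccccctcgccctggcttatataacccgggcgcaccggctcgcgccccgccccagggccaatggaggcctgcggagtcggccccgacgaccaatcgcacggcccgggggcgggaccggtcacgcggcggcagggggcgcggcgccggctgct
CRY1, chr12:107093621-107093650, minus strand: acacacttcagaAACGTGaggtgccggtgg
NR1D1, chr17:40100726-40100804, minus strand: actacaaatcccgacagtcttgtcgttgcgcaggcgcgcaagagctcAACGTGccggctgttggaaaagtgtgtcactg
NR1D2, chr3:23945871-23946120, plus strand: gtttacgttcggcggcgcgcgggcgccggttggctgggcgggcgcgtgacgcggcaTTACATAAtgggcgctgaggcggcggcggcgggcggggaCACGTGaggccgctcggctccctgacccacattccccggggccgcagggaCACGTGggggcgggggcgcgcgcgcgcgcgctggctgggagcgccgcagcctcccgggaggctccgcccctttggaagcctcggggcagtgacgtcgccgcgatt
BHLHE40, chr3:4979187-4979209, plus strand: tccaaCACGTGagactcatgtga

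All 10 genes matched the RefSeq promoter table, with 13 windows of 250 bases before a gene start. The E-box CACGTG was found on either strand in windows of 4 of the 10 genes (PER1, NR1D2, BHLHE40 and BHLHE41) and in 6.34% of all 35116 windows. The variant CACGTT, or AACGTG on the other strand, was found in windows of 4 other members, PER2, CRY1, CRY2 and NR1D1, and in 4.55% of all windows. The D-box TTATGTAA, or TTACATAA, was found in PER3 and NR1D2 and in 0.834% of windows. NR1D2 carried E-boxes beginning 155 and 105 bases before its start and a D-box beginning 194 bases before it. The core receptor site AGGTCA, or TGACCT, bound by ROR and REV-ERB receptors, was found in PER1 and CRY2 and in 12.1% of windows. The cAMP response element TGACGTCA was found in none of the 13 windows and in 1.65% of all windows, and the DBP window held none of these 5 motifs. A match is a description of the letters, not a bound site, and no match says only that these letters are not in the window.

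The libraries were alike in breadth, with 12045 to 13157 genes at 1 FPKM or more. Absolute depth is unknown because FPKM values keep no counts, and relative depth read from the lowest values ran from 0.555 of DMSO in BIX-01294 to 1.24 in SAHA. The 2-PCPA library of replicate 1 stood apart. Its median gene was lower than DMSO by 0.43 on the log2 scale, and 28.5% of 393 olfactory receptor genes were above 0 in it, against 2.8% to 6.62% in the other replicate 1 libraries. VIM, SPARC, COL1A1, CDH2 and RUNX2, listed as U2OS or mesenchymal markers, reached 1 FPKM, while COL1A2 was at most 0.0987 FPKM and TWIST1 was at 0. Markers of other cell types summed to 1.23 to 9.87 FPKM over 13 genes in replicate 1, where EPCAM, MYOD1 and DES passed 1 FPKM, MYOD1 at up to 7.31 in GSK-J4, while CD3E, APOA2 and HBB were at 0. In bulk libraries a change in the share of cells and a change in RNA per cell cannot be told apart.

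In DMSO, NR1D2 was the most abundant of the 10, at 21.8 FPKM in replicate 1 and 21.3 in replicate 2, and BHLHE40 followed at 16.5 and 20.2. CRY1 stood at 10.3 and 10.6 FPKM, PER3 at 8.89 and 9.49, and PER1 at 5.66 and 6.72. These 5 did not overlap with one another in the order given. CRY2 at 2.87 and 4.11 FPKM overlapped with BHLHE41 at 2.46 and 3.20, and PER2 was lowest at 0.926 and 1.46. NR1D1 and DBP could not be placed, since their DMSO libraries differed widely. NR1D1 was at 3.93 FPKM in replicate 1 and 8.56 in replicate 2, and DBP at 2.31 and 8.67. The tables were made separately, so levels set across them carry any difference in processing between them, and all differences given here were taken within a table.

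Across the 10 libraries of replicate 1, DBP and BHLHE40 varied most and CRY2 least. The SD of log2(FPKM + 1) was 1.36 for DBP, which only 1.5% of 12804 genes exceeded, 1.14 for BHLHE40 (2.65% exceeded it) and 0.84 for NR1D1 (6.63%). CRY2 had an SD of 0.27, below that of 87.5% of genes, against a median of 0.41 over all genes. PER1, PER2, CRY1, NR1D1, NR1D2 and BHLHE40 had their highest library in BIX-01294, DBP in SAHA, PER3 in UNC1215, and CRY2 and BHLHE41 in BRD4770.

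**Figure D1:**
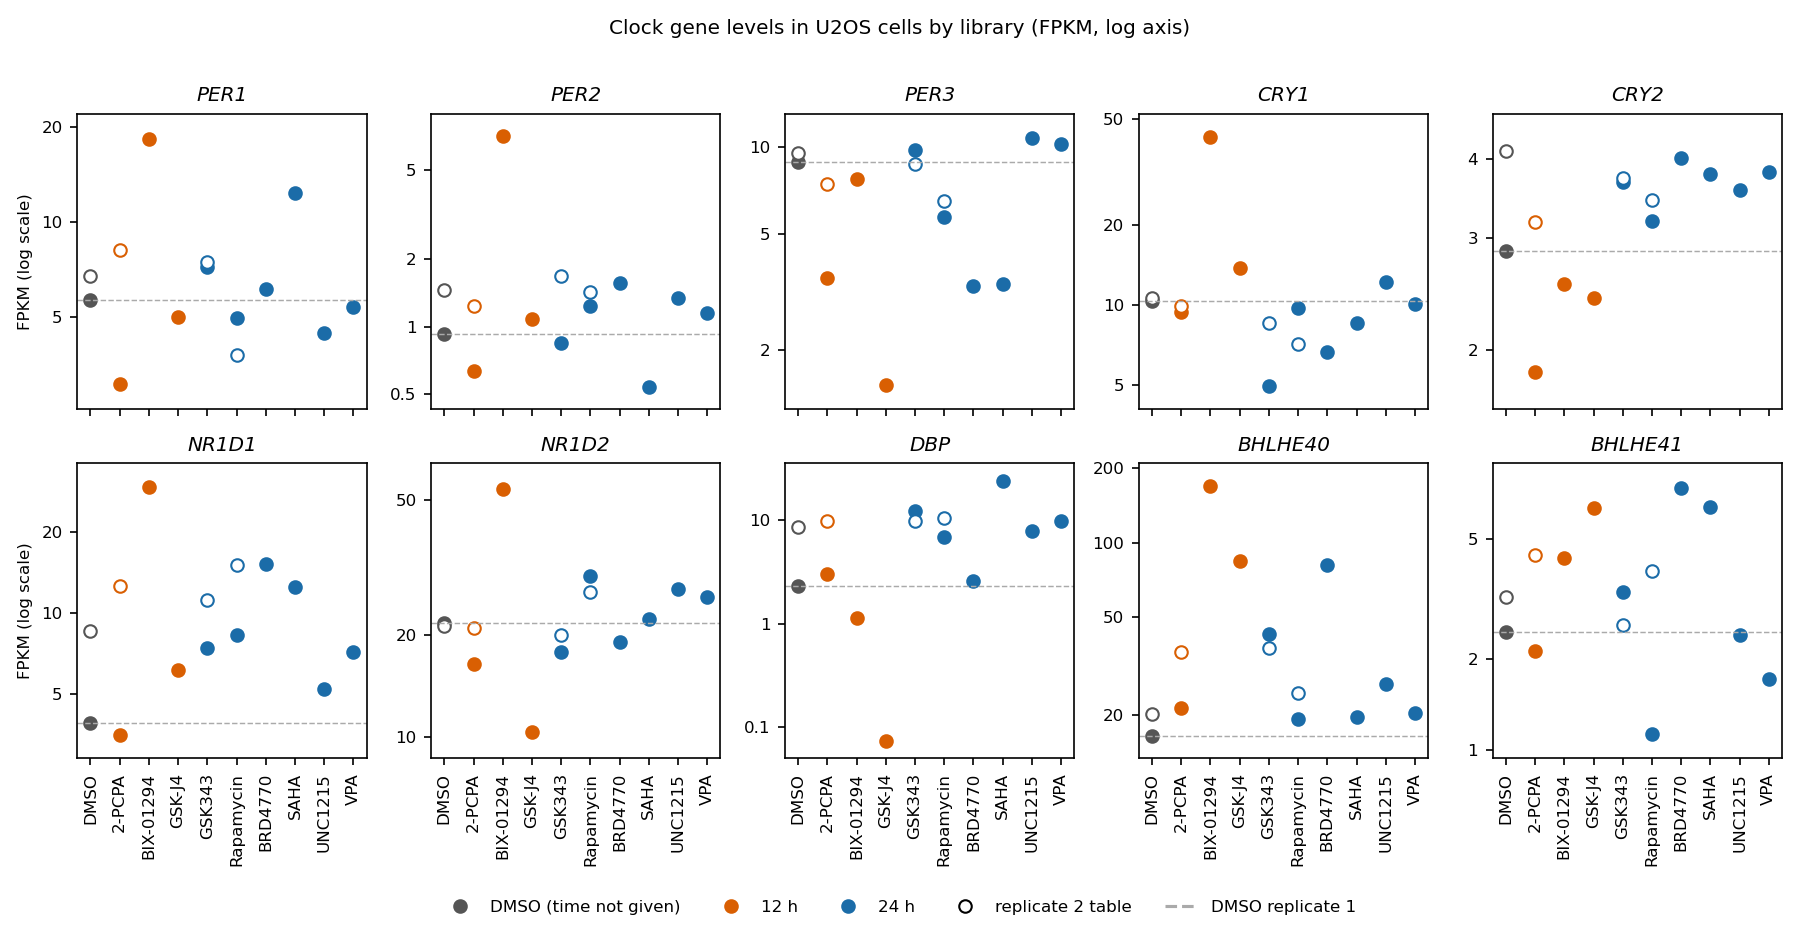
Level of each of the 10 clock genes in every library, in FPKM on a log axis with its own range per gene. Filled points are the replicate 1 table and open points the replicate 2 table, grey is DMSO, orange 12 h and blue 24 h, and the dashed line marks DMSO replicate 1. BIX-01294 is the highest point for PER1, PER2, CRY1, NR1D1, NR1D2 and BHLHE40, and GSK-J4 is the lowest for PER3, NR1D2 and DBP.

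BIX-01294 gave the broadest difference. In its library 6 of the 10 genes stood at least 2-fold above DMSO of the same table and 0 stood 2-fold below, where 9.97% of 12804 genes were 2-fold higher and 6.04% were 2-fold lower. Here and below a fold compares FPKM + 1, so changes of low genes are understated, and with 1 library the difference has no replicate check and no test. BHLHE40, an E-box repressor, was at 169.8 FPKM against 16.5 in DMSO, a log2 difference of 3.29 that 0.383% of genes exceeded. NR1D1, the repressor of ARNTL, was at 29.5 against 3.93 FPKM, a log2 difference of 2.63. PER2 was at 7.15 FPKM in BIX-01294 and at 0.535 to 1.57 in the other 9 replicate 1 libraries, so its log2 difference of 2.08 from DMSO rests on a gene that was otherwise near 1 FPKM.

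CRY1, a strong repressor of CLOCK and ARNTL, was at 42.5 FPKM against 10.3 in DMSO, a log2 difference of 1.95. PER1 was at 18.4 against 5.66 FPKM (1.54 on the log2 scale) and NR1D2 at 53.7 against 21.8 FPKM (1.26). The remaining 4 genes did not take part at this size. BHLHE41 was at 4.32 against 2.46 FPKM, CRY2 at 2.54 against 2.87, PER3 at 7.74 against 8.89 and DBP at 1.13 against 2.31. The 6 genes were the same when the reference was the median of the 10 libraries in place of DMSO. Against that median 9.09% of all genes were 2-fold higher and 5.19% lower, and DBP lay 1.40 below on the log2 scale. NR1D1 lay 1.87 above that median, and DMSO itself 0.75 below it for this gene. THRA, which overlaps NR1D1 on the other strand, was at 8.12 FPKM in BIX-01294 and 8.51 in DMSO, and BHLHE40-AS1, antisense to BHLHE40, at 3.10 and 0 FPKM. Strand use in counting is not given in the sources used here, so reads of overlapping genes cannot be told apart.

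Other clock genes in the BIX-01294 library are given here by role. Over all genes 9.97% were 2-fold higher and 6.04% were 2-fold lower in it. Of the 5 measured activators and ROR receptors, ARNTL stood at 23.2 FPKM against 5.17 in DMSO, a log2 difference of 1.97, and RORA at 3.12 against 0.853 (1.15), while CLOCK, NPAS2 and ARNTL2 were within 0.24 of DMSO. Of 8 measured output genes, 6 were at least 2-fold higher, with a list median of 1.73 against 0.06 over all genes. They included CCRN4L (nocturnin, a deadenylase-family enzyme) at 50.1 against 7.13 FPKM, NFIL3 at 56.5 against 12.4 and NAMPT, the rate-limiting enzyme of NAD salvage, at 65.8 against 18.7. TEF, the DBP relative, was at 6.45 against 7.37 FPKM. Of 16 measured clock kinases and ubiquitin ligase genes, 2 were 2-fold higher (BTRC and PRKAA2), and of 18 chromatin partners 3 were higher (CREBBP, EP300 and SIRT1) and 1 lower, KIAA1737 (CIPC, an inhibitor of CLOCK).

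Genes of the immediate-early serum and cAMP response stood high in the same library. Of 10 measured, 9 were at least 2-fold above DMSO, with a list median of 2.57 on the log2 scale. One of the 9, FOSB, reached the required mean of 1 FPKM only through this library, so its place in the count follows from the filter. FOSB was at 6.17 FPKM there and at most 1.91 in the other replicate 1 libraries. EGR1, a zinc finger factor induced within minutes of stimulation, was at 263.3 FPKM against 6.49, FOS at 44.1 against 0.882 and DUSP1 at 195.9 against 35.6. Of 7 measured glucocorticoid-responsive genes 5 were 2-fold higher, with a median of 1.56, though FKBP5, a receptor target, was at 3.17 against 5.86 FPKM. The hypoxia-induced list had 2 of 12 genes 2-fold higher, where 9.97% of all genes were, and a median of 0.44. The part these lists play in the PER1, NR1D1 and BHLHE40 values was not tested.

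**Figure D2:**
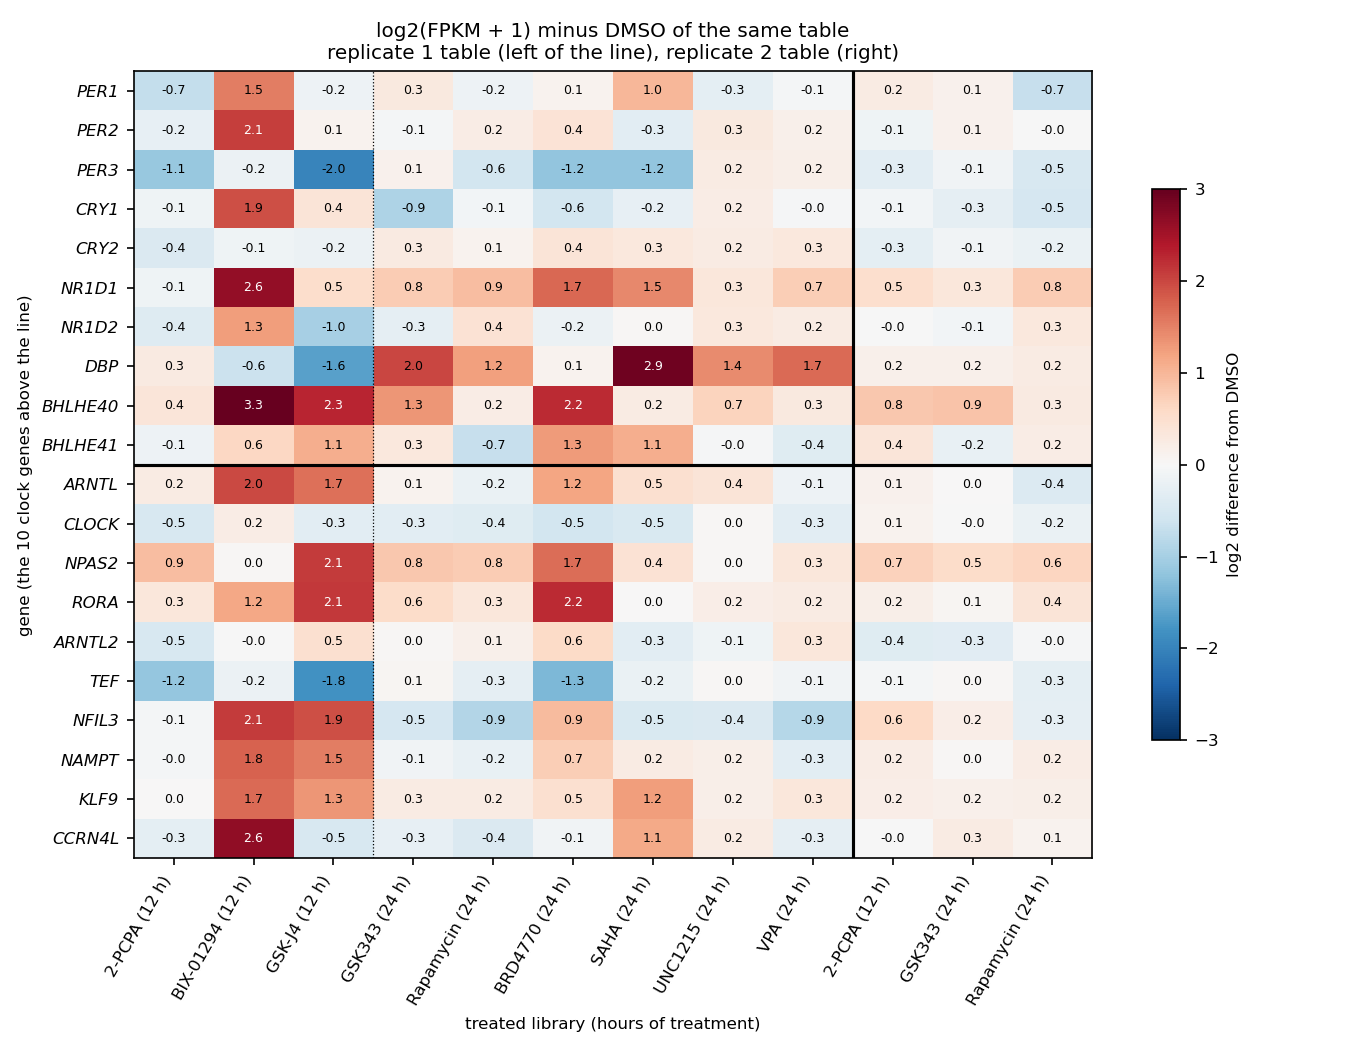
Log2 difference from DMSO of the same table for the 10 clock genes (above the horizontal line) and 10 other clock genes, by treated library, with hours of treatment in the labels. Red is higher and blue lower than DMSO, on log2(FPKM + 1), and the replicate 2 libraries are right of the solid vertical line. The BIX-01294 column is at 1.26 or more for 6 of the 10 genes, and the BHLHE40 row is above 0 in all 12 treated libraries.

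GSK-J4 and BRD4770, given for 12 h and 24 h, differed from DMSO in BHLHE40, BHLHE41 and PER3 in the same directions. BHLHE40 was at 84.5 FPKM in GSK-J4 and 81.0 in BRD4770 against 16.5 in DMSO, log2 differences of 2.29 and 2.23. BHLHE41 was at 6.32 and 7.35 FPKM against 2.46 (1.08 and 1.27). PER3 was at 1.51 and 3.32 FPKM against 8.89 in DMSO, log2 differences of -1.98 and -1.19, and only 0.812% of genes were lower than that in GSK-J4. UTS2, which overlaps PER3 on the other strand, was also lower, at 0.641 and 2.16 FPKM against 6.16. It was lower with PER3 in 2-PCPA replicate 1 (1.05), SAHA (1.54) and rapamycin replicate 1 (2.67). In GSK343 replicate 1 (3.74) and VPA (5.72) UTS2 was lower while PER3 was higher, at 9.78 and 10.2 FPKM. In BIX-01294 UTS2 was higher (8.16) while PER3 was lower (7.74), and in UNC1215 both were higher (7.14 and 10.7). In replicate 2 UTS2 was at 0.261 FPKM in DMSO and at 0 in the 3 compounds, with PER3 at 6.51 to 9.49. The part of shared reads was not tested. Both libraries are compared with the same DMSO library, so their likeness is not independent evidence.

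They parted over the other members. DBP was listed at 0.0736 FPKM in GSK-J4, the lowest of the 10 libraries, and at 2.59 in BRD4770 against 2.31 in DMSO. NR1D2 was at 10.4 FPKM in GSK-J4, its lowest library, and at 19.05 in BRD4770. NR1D1 was at 6.14 and 15.3 FPKM, log2 differences of 0.53 and 1.72. CRY1 was at 13.8 FPKM in GSK-J4 and 6.69 in BRD4770, on either side of the 10.3 of DMSO, while PER1, PER2 and CRY2 lay within 0.42 of DMSO on the log2 scale in both. In GSK-J4, 2 of the 10 genes were at least 2-fold higher and 3 lower, where 8.92% and 5.96% of all genes were. In BRD4770 the counts were 3 higher and 1 lower, where 5.94% and 4.84% of all genes were. Against the median of the 10 libraries BHLHE40 stayed 1.78 and 1.72 above, and BHLHE41 was 0.92 and 1.11 above, in GSK-J4 and BRD4770. NR1D1 in BRD4770 lay 0.97 above that median, under 2-fold.

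Of the 5 measured activator and ROR genes, 3 stood at least 2-fold above DMSO in both libraries. ARNTL was at 18.5 FPKM in GSK-J4 and 12.9 in BRD4770 against 5.17 in DMSO, NPAS2, which can replace CLOCK, at 9.13 and 6.60 against 1.37, and RORA at 7.06 and 7.72 against 0.853. ARNTL2 lay 0.47 and 0.56 above DMSO on the log2 scale, and CLOCK was lower at 5.29 and 4.32 against 6.77 FPKM. TEF was lower, at 1.37 and 2.30 against 7.37 FPKM, and NFIL3, its repressor at D-boxes, was at 50.1 and 24.8 against 12.4.

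All 12 genes of the hypoxia-induced list stood at least 2-fold above DMSO in GSK-J4 and in BRD4770, with list medians of 3.19 and 2.20 on the log2 scale. One of the 12, CA9, reached the required mean of 1 FPKM only through these 2 libraries, so its place in this count follows from the filter. CA9 was at 25.9 and 36.1 FPKM there and at most 0.609 in the other replicate 1 libraries. NDRG1, a hypoxia-induced growth regulator, was at 857.3 and 266.7 FPKM against 30.1 in DMSO, and VEGFA, the angiogenic growth factor, at 112.6 and 59.9 against 13.99. BHLHE40 and BHLHE41 are themselves known hypoxia-inducible genes. In the other 7 treated replicate 1 libraries the list had at most 2 genes 2-fold higher and medians from -0.30 to 0.44, and there BHLHE40 still reached 3.29 in BIX-01294 and 1.32 in GSK343. The part of the hypoxia-induced genes in the BHLHE40 values was not tested. MYOD1, a muscle regulator in the list of other cell types, was also highest in these 2 libraries, at 7.31 and 6.92 FPKM.

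**Figure D3:**
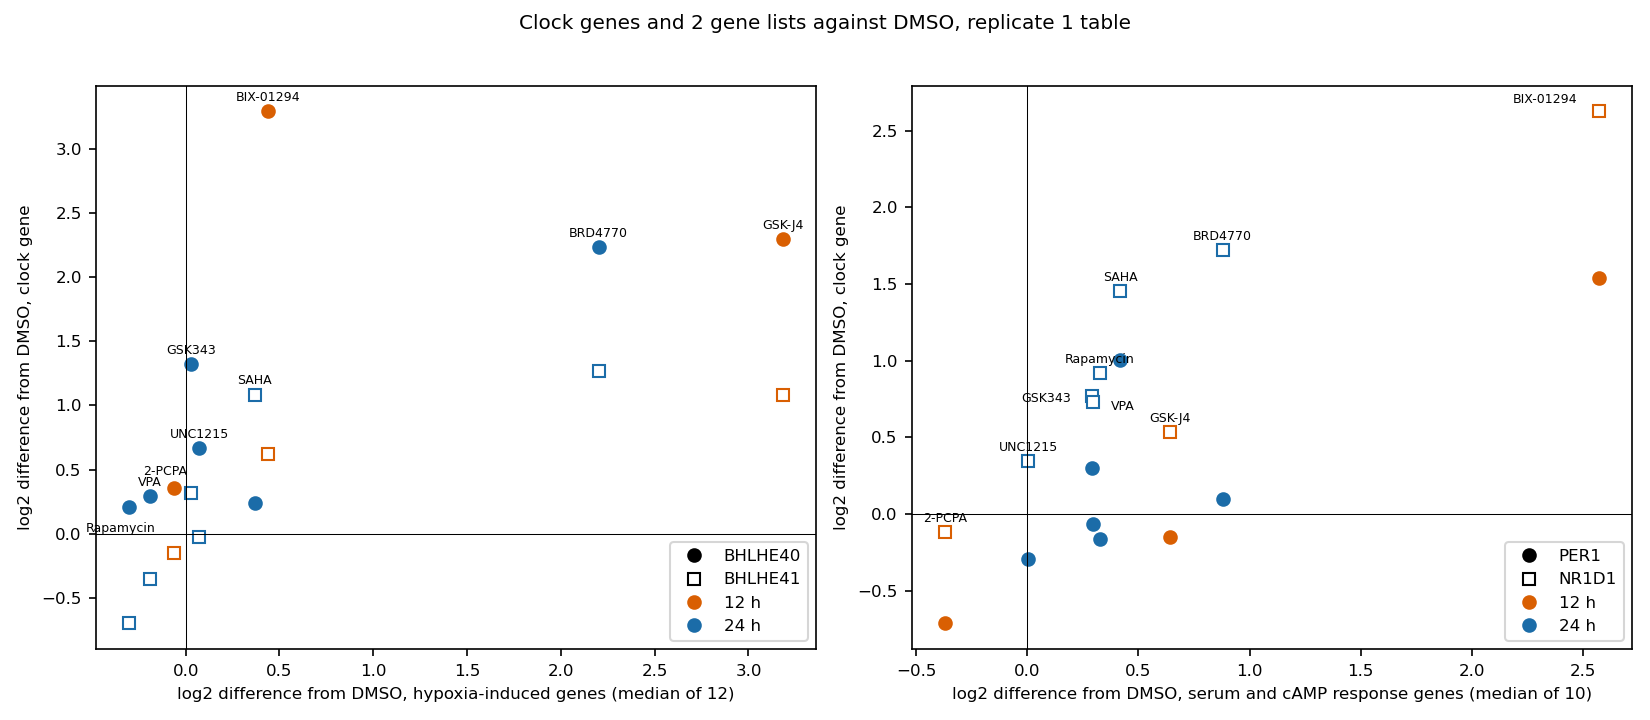
Log2 difference from DMSO of BHLHE40 and BHLHE41 against the median difference of the hypoxia-induced list (left), and of PER1 and NR1D1 against that of the serum and cAMP list (right), for the 9 treated libraries of replicate 1, orange for 12 h and blue for 24 h. Compound names stand by the higher of the 2 genes. GSK-J4 and BRD4770 lie at 3.19 and 2.20 on the hypoxia axis with BHLHE40 at 2.29 and 2.23, while BIX-01294 has BHLHE40 at 3.29 with a hypoxia median of 0.44 and lies at 2.57 on the serum and cAMP axis.

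SAHA differed from DMSO most in DBP. In its library 4 of the 10 genes were at least 2-fold higher and 1 lower, where 7.79% and 3.83% of all genes were. DBP, the D-box activator, was at 24.2 FPKM against 2.31 in DMSO, a log2 difference of 2.93 that 0.398% of genes exceeded. NR1D1 was at 12.5 against 3.93 FPKM, PER1 at 12.4 against 5.66 and BHLHE41 at 6.34 against 2.46. PER3 was the gene lower in SAHA, at 3.36 against 8.89 FPKM. Against the median of the 10 libraries the SAHA counts were 2 higher, DBP (2.17) and PER1 (1.04), and 0 lower. Of all genes 5.69% were 2-fold higher and 2.47% lower against that median. NR1D1 then lay at 0.70, BHLHE41 at 0.92 and PER3 at -0.81. With DMSO as reference and a pseudocount of 5 FPKM the counts were 1 and 0, a setting whose share of all genes is not given here. THRA, which overlaps NR1D1, was itself at 20.8 FPKM in SAHA against 8.51, and SPHK2, which overlaps DBP, at 5.11 against 3.19, and the part of shared reads in either difference was not tested.

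VPA, at a micromolar dose, had 1 gene 2-fold higher and 0 lower, where 2.81% and 1.59% of all genes were. That gene was DBP, at 9.77 against 2.31 FPKM, and it lay 0.94 above the median of the 10 libraries, under 2-fold. NR1D1 was at 7.20 against 3.93 FPKM, and PER1, PER2, PER3, CRY1 and CRY2 were within 0.32 of DMSO on the log2 scale. UNC1215 had the same counts, 1 and 0, against a background of 1.8% and 1.26%. Its 2-fold gene was again DBP, at 7.88 FPKM, and BHLHE40 was next at 26.7 against 16.5 FPKM, a log2 difference of 0.67.

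DBP was above DMSO in all 6 of the 24 h libraries of replicate 1, from 2.59 FPKM in BRD4770 to 24.2 in SAHA, with GSK343 at 12.2 and rapamycin at 6.82. Of the 12 h libraries 2-PCPA was above at 3.02 FPKM and BIX-01294 and GSK-J4 were below. This order turns on the DMSO library of replicate 1. Its 2.31 FPKM stood below the 8.67 of DMSO replicate 2, where 2-PCPA, GSK343 and rapamycin were at 9.83, 9.81 and 10.4, log2 differences of 0.16 to 0.24. NR1D1, BHLHE40 and CRY2 likewise had DMSO replicate 1 below all 6 of the 24 h libraries, as did 12.2% of all genes, while 0 of the 10 had it above all 6, as 10.1% of all genes did. Against the median of the 10 libraries, 4.92 FPKM, DBP was 2.17 higher in SAHA and 1.24 in GSK343 on the log2 scale, and below 1 in VPA (0.94), UNC1215 (0.66) and rapamycin (0.48).

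The compounds with 2 libraries were tested with limma on log2(FPKM + 1) over 12603 genes, with the replicate number as a block. None of the 10 clock genes was called at an adjusted p of 0.05 against DMSO, nor between compounds. For all genes the limma calls were as few: 0.00793% higher and 0.0159% lower in 2-PCPA, 0.00793% and 0.00793% in GSK343, and 0% and 0.0159% in rapamycin. At an unadjusted limma p of 0.05, 2-PCPA had 0 of the 10 genes higher and 1 lower, where 1.49% and 5.99% of all genes were. GSK343 had 2 higher and 0 lower, where 3.3% and 0.92% of all genes were, and rapamycin had 1 higher and 0 lower, where 3.22% and 3.24% were. Within replicate 2 alone, 0 of the 10 genes differed 2-fold from DMSO in any of the 3 compounds. There 1.01% and 0.92% of all genes were 2-fold higher and lower with 2-PCPA, 0.849% and 0.801% with GSK343, and 1.48% and 0.92% with rapamycin.

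GSK343 and BHLHE40 made the clearest pair. BHLHE40 was at 42.6 and 37.2 FPKM in the GSK343 libraries and 16.5 and 20.2 in DMSO, so the groups did not overlap. The log2 difference was 1.09 ± 0.25 (SE, n = 2 libraries each), with an interval of 0.51 to 1.67, a limma p of 0.0024 and an adjusted p of 0.792. When small RNA and clone rows were dropped, the limma adjusted p was 0.0649, and over all alternatives it ran up to 1. DBP was at 12.2 and 9.81 FPKM with GSK343 against 2.31 and 8.67, a log2 difference of 1.08 ± 0.41 with a limma adjusted p of 0.949. The DBP difference was 2.00 within replicate 1 and 0.16 within replicate 2. SPHK2, which overlaps DBP, was at 9.76 and 7.19 FPKM against 3.19 and 5.81. NR1D1 was at 7.42 and 11.2 against 3.93 and 8.56 FPKM, and CRY1 at 4.99 and 8.56 against 10.3 and 10.6, a log2 difference of -0.60 ± 0.26 (limma adjusted p = 0.949). In replicate 1, 2 of the 10 genes were 2-fold higher with GSK343 and 0 lower, where 4.78% and 1.44% of all genes were. Against the median of the 10 libraries only DBP remained 2-fold higher, where 2.19% of all genes were, BHLHE40 lying 0.81 above.

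With rapamycin, NR1D1 was at 8.33 and 15.1 FPKM against 3.93 and 8.56 in DMSO, higher in both tables though the group ranges overlapped. The log2 difference was 0.83 ± 0.27, with an interval of 0.23 to 1.44 and a limma adjusted p of 0.679, or 0.182 when small RNA and clone rows were dropped. Its relative NR1D2 was at 29.8 and 26.8 FPKM against 21.8 and 21.3, a log2 difference of 0.38 ± 0.22 (limma adjusted p = 0.768). PER3 was at 5.73 and 6.51 against 8.89 and 9.49 FPKM (-0.52 ± 0.27, limma adjusted p = 0.757). PER1 was at 4.94 and 3.78 FPKM against 5.66 and 6.72, lower in both tables, and BHLHE41 lay below DMSO in replicate 1 and above it in replicate 2. In replicate 1, 1 of the 10 genes, DBP, was 2-fold higher with rapamycin and 0 were lower, where 2.74% and 2.54% of all genes were.

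With 2-PCPA, PER3 was at 3.53 FPKM against 8.89 in replicate 1 and at 7.43 against 9.49 in replicate 2. The log2 difference was -0.72 ± 0.27, with a limma p of 0.026 and an adjusted p of 0.592. The values within the tables were -1.13 and -0.31, and the first is from the library whose median gene lay 0.43 below DMSO. With each library centred on its median the difference was -0.52. BHLHE40 was at 21.4 and 35.8 FPKM against 16.5 and 20.2, without overlap, a log2 difference of 0.58 ± 0.25 (limma adjusted p = 0.592), and 0.78 after centring. PER1 was at 3.05 and 8.13 against 5.66 and 6.72 FPKM, on opposite sides of DMSO in the 2 tables, as were NR1D1 at 3.54 and 12.6 against 3.93 and 8.56 and BHLHE41 at 2.13 and 4.42 against 2.46 and 3.20. CRY2 was lower in both, at 1.85 and 3.18 against 2.87 and 4.11 FPKM. In replicate 1, 0 of the 10 genes were 2-fold higher and 1 (PER3) 2-fold lower with 2-PCPA, where 1.27% and 8.19% of all genes were, and with median centring the count lower was 0.

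**Figure D4:**
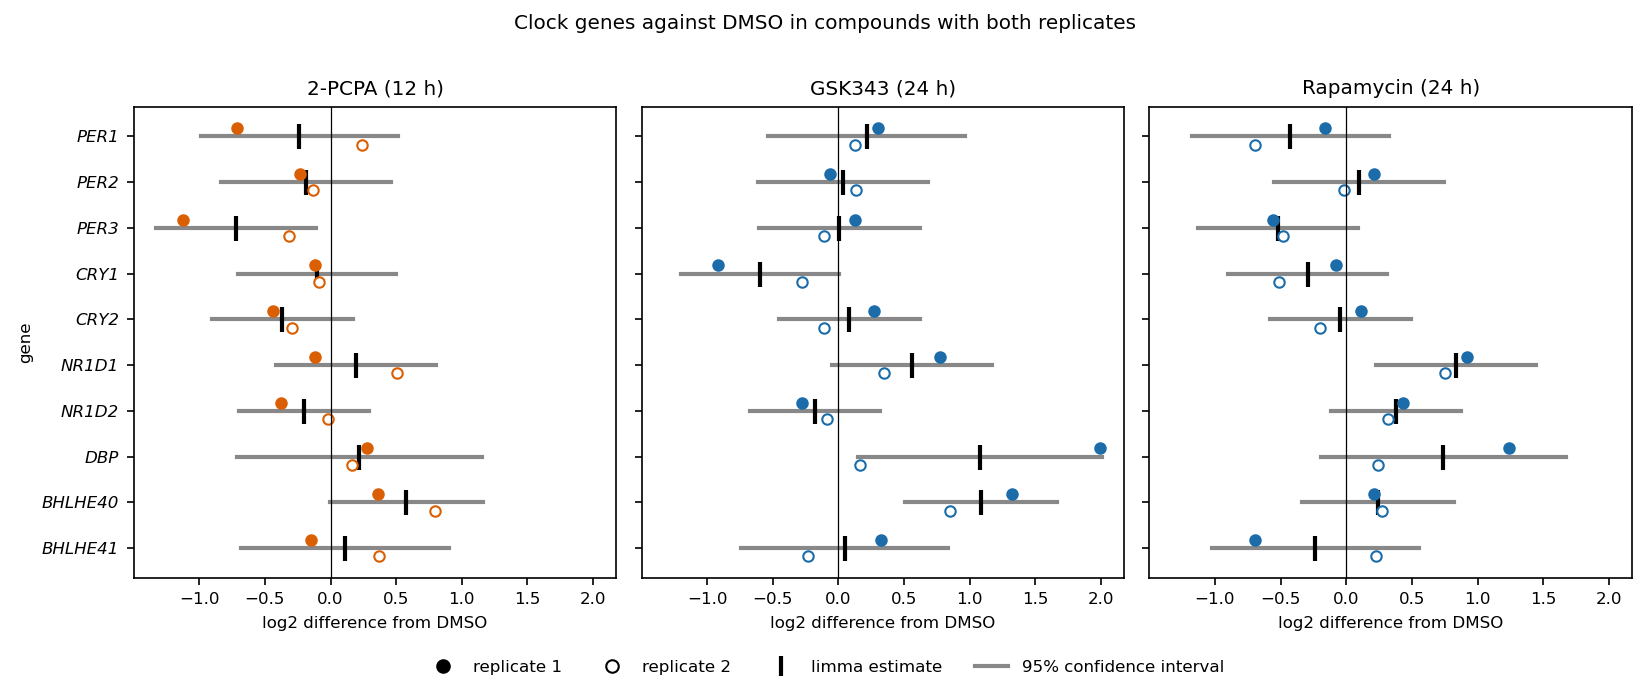
Log2 difference from DMSO of each clock gene in the 3 compounds with libraries in both tables. Filled points are replicate 1, open points replicate 2, black ticks the limma estimate and grey bars its 95% confidence interval. The bars that clear 0 are PER3 in 2-PCPA (-0.72), BHLHE40 (1.09) and DBP (1.08) in GSK343 and NR1D1 in rapamycin (0.83), none of them called after adjustment.

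Between compounds limma also called 0 of the 10 genes, against 0.0317% of all genes higher and 0.0159% lower for 2-PCPA over rapamycin, 0.0793% and 0% for GSK343 over rapamycin, and 0.00793% and 0.0238% for 2-PCPA over GSK343. At an unadjusted limma p of 0.05 the members gave 0 higher and 2 lower (2.49% and 9.28% of all genes), 1 higher and 1 lower (4.05% and 1.55%), and 0 higher and 1 lower (0.762% and 10.9%), in the same order. NR1D2 was lower with 2-PCPA than with rapamycin by a log2 difference of -0.58 (16.5 and 21.0 against 29.8 and 26.8 FPKM, limma adjusted p = 0.414), and lower with GSK343 than with rapamycin by -0.56. The NR1D2 libraries of rapamycin lay above all others of these 4 groups. BHLHE40 was higher with GSK343 than with rapamycin by 0.84 (42.6 and 37.2 against 19.2 and 24.5 FPKM, limma adjusted p = 0.711). PER3 was lower with 2-PCPA than with GSK343 by -0.73 (limma adjusted p = 0.418), with 7.43 FPKM in the higher 2-PCPA library and 8.72 in the lower GSK343 library. Without 2-PCPA replicate 2, a fit that takes the lone 2-PCPA library to vary like the others put the PER3 difference at -1.16 with a limma adjusted p of 0.0436. It called 1 of the 10 clock genes beside 1844 of all 12603 genes tested. That fit rests on the 2-PCPA library that stands apart.

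Beyond the 10 genes, the replicated compounds gave 0 called genes by limma against DMSO in 4 lists. These were 5 tested activators and ROR receptors, 8 output genes, 16 kinase and ligase genes and 17 chromatin partners. At an unadjusted limma p of 0.05 there were NPAS2, higher in each of the 3 compounds, and NFIL3, lower in rapamycin (-0.58 ± 0.23, limma adjusted p = 0.752). In 2-PCPA 2 of the 17 chromatin partners were lower at that limma p, where 5.99% of all genes were. These were HDAC3 (-0.58 ± 0.23) and SFPQ (-0.64 ± 0.24), each with a limma adjusted p of 0.592. Of all genes 1.49%, 3.3% and 3.22% were higher at that limma p in 2-PCPA, GSK343 and rapamycin, and 3.24% were lower in rapamycin. NPAS2 was at 3.48 and 4.41 FPKM with 2-PCPA, 3.14 and 3.89 with GSK343 and 3.01 and 4.24 with rapamycin, against 1.37 and 2.35 in DMSO. The NPAS2 log2 differences were 0.81 ± 0.22, 0.68 ± 0.22 and 0.70 ± 0.22, with limma adjusted p-values of 0.592, 0.949 and 0.676, and all 3 share the DMSO libraries. ARNTL stayed between 4.41 and 7.66 FPKM in these 8 libraries and CLOCK between 4.54 and 6.77.

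Set apart by time, the 10 genes gave no common pattern. In replicate 1 only CRY2 had all 3 of the 12 h libraries below all 6 of the 24 h libraries, 1 of 10 genes where 6.56% of all genes did so, and 0 of the 10 had the 12 h libraries all above, where 0.461% of all genes did. CRY2 was at 1.85 FPKM in 2-PCPA, 2.54 in BIX-01294 and 2.41 in GSK-J4, and at 3.19 to 4.02 in the 24 h libraries, with DMSO between at 2.87. The 2-PCPA value lay 0.44 below DMSO on the log2 scale, in a library whose median gene lay 0.43 below. In replicate 2 the 12 h library was at 3.18 FPKM and the 24 h libraries at 3.73 and 3.44, all below the 4.11 of DMSO. BIX-01294 and GSK-J4, both 12 h, lay on opposite sides of DMSO for PER1 and NR1D2, PER1 at 18.4 and 4.98 FPKM and NR1D2 at 53.7 and 10.4.

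Among the 10 genes, PER1 and NR1D1 followed each other closest over the 10 replicate 1 libraries, with a Pearson r of 0.85 on log2(FPKM + 1), and 0.68 without BIX-01294. PER2 and CRY1 had an r of 0.84 that was 0.13 without BIX-01294, and BHLHE40 and BHLHE41 had 0.62 and, without it, 0.71. These are descriptions over 10 libraries that share a sequencing table and 1 DMSO library. Among 11599 candidate genes, the nearest to BHLHE40 was IL6R, the interleukin-6 receptor, with an r of 0.99 over 10 libraries, 0.98 without BIX-01294 and 0.76 over the 4 libraries of replicate 2. VASP, an actin regulator, was nearest to PER1, at 0.98, 0.95 and 0.87. SMARCB1, a core subunit of the SWI/SNF remodeller, was nearest to PER3, at 0.96, 0.98 and 0.86. For NR1D1 the nearest was ARIH1, at 0.95 and 0.90 but 0.29 in replicate 2. For DBP the nearest was PNKD at 0.98, which turned to -0.83 in replicate 2, and for CRY2 it was RABGGTA at 0.96, with -0.35 there. For PER2, CRY1, NR1D2 and BHLHE41 the nearest were KAT6A, SBDSP1, SRGAP2C and SH3BGRL2, at 0.98, 0.97, 0.94 and 0.95. Over replicate 2 these were at -0.053, 0.60, -0.90 and 0.21. Each nearest gene was picked as the highest of 11599 over 10 libraries, so its r there is high in part through the picking.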

How the data were processed

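RNA sequencing of U2OS cells was analysed from FPKM values per gene, as the authors deposited them in 2 tables, 1 per replicate. Per the submitters' processing notes, TopHat2 aligned the reads to hg19 after FastQC and cutadapt. What program and annotation gave the FPKM values is not given in the sources used here. The members and gene lists were chosen with earlier results of these data known. They were taken by symbol, and 1 row with no gene name and 0 columns were left out.

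Values were taken as log2(FPKM + 1), within a table. Genes averaging 1 FPKM or more were kept, 12603 of the 22919 genes in both tables for limma 3.58.1 in R 4.3.3, and 12804 of the replicate 1 table for single libraries. A single limma model took the 4 groups with 2 libraries, blocked by replicate number. Its eBayes step used a trend, the degrees of freedom were 3 residual and 5.42 prior, and p-values were adjusted by Benjamini-Hochberg over all tested genes and read at 0.05. Libraries with the same number deviated from their group means together (r of 0.71 to 0.78 over 6 pairs), which is the check on the block. The 6 compounds with 1 library have no test, and genes were counted at a 2-fold difference from DMSO. All 10 members were followed in each comparison, other genes came from fixed lists, and the nearest genes by Pearson r were taken up to the third. NPAS2 and other list genes given with values were picked after their values were seen. A few marker genes are not reported here. Promoters were searched on GRCh38 for exact letters.

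Alternatives were other pseudocounts and filters, median centring, quantile normalization, TPM scaling, leaving out each library in turn, no block, no trend, robust eBayes, and a fit to the compared groups alone. The median of the 10 libraries as reference and the scalings of the 12 h and 24 h split were added after the data were seen.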

Additional observations from a re-analysis of the deposited data

Results flagged for a closer look

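CRY2, the cryptochrome with the smallest spread over the libraries, was picked out because its 3 libraries treated for 12 h all lay below DMSO in replicate 1 while all 6 treated for 24 h lay above it. The 2-PCPA value, -0.44 on the log2 scale, came from the library whose median gene also lay 0.43 below DMSO. CRY2 there was thus lower by about as much as the median gene. The share of all genes that split around DMSO in this way is not given here. The median log2 difference from DMSO was -0.18 at 12 h and 0.29 at 24 h, a gap of -0.47 between the medians. The difference between the times was not tested, and time cannot be told apart from compound. In replicate 2 both 24 h compounds lay below DMSO. No group had the 4 to 10 libraries that the check for a library far from its group needs.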

How the results depend on the processing

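No clock gene was called by limma under any alternative but 1. Without 2-PCPA replicate 2, the comparison of 2-PCPA with GSK343 called 1, PER3, and leaving out a replicate gave 0 to 1 called there and 0 in the other 5 comparisons. The fit with no replicate block also called 0 of the 10 clock genes in all 6 comparisons, and changed none of their calls. Over all genes, calls without the block were 1 for 2-PCPA, 0 for GSK343 and 0 for rapamycin against DMSO, from 3, 2 and 2 with it. Those totals are unstable, reaching 272 in 2-PCPA, 46 in GSK343 and 66 in rapamycin under other settings, and 1844 for 2-PCPA against GSK343 with a library left out.

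Some differences near 0 turned sign with scaling. In 2-PCPA, median centring gave 0.016 for PER2 and 0.097 for CRY1, quantile normalization 0.11 for CRY1 and 0.054 for NR1D2, and TPM scaling 0.051 for PER1, 0.24 for CRY1 and 0.15 for NR1D2. In GSK343, PER2 and PER3 went to -0.011 and -0.038 with centring, -0.065 and -0.035 with quantiles and -0.024 and -0.069 with TPM, and BHLHE41 to -0.043 with quantiles and -0.0059 with TPM. In rapamycin CRY2 was 0.0063 after centring.

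With a library left out, the 2-PCPA difference ran from -0.27 to 0.71 for DBP, -0.83 to 0.36 for PER1, -0.22 to 0.61 for NR1D1 and -0.085 to 0.31 for BHLHE41. For GSK343 it ran from -0.083 to 0.25 for CRY2, -0.26 to 0.27 for PER3, -0.47 to 0.56 for BHLHE41 and -0.084 to 0.15 for PER2. For rapamycin it ran from -0.065 to 0.26 for PER2, -0.70 to 0.23 for BHLHE41, -0.16 to 0.076 for CRY2 and -0.62 to 0.036 for CRY1. BHLHE40 in GSK343 (0.77 to 1.40) and NR1D1 in rapamycin (0.72 to 0.95) kept their sign, and DBP in GSK343 ran from 0.35 to 1.81.

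Counts of clock genes 2-fold from DMSO moved with the pseudocount. At 0.1 FPKM, GSK343 had 1 lower and rapamycin 2 higher and 1 lower. At 5 FPKM, 2-PCPA had 0 lower, GSK-J4 1 higher and 1 lower, BRD4770 0 lower, rapamycin 0 higher, SAHA 1 higher and 0 lower, and UNC1215 0 higher. Median centring left 2-PCPA 0 lower, TPM scaling gave it 1 higher and 0 lower and GSK343 1 lower, and a mean of at least 5 FPKM left GSK-J4 1 higher. That filter also removed PER2 from the genes higher in BIX-01294, and BHLHE41 from those higher in BRD4770 and SAHA. Against the median of the 10 libraries, the counts lower were 0 in 2-PCPA, 1 in BIX-01294, 0 in BRD4770 and 0 in SAHA. Of all genes 5.05%, 5.19%, 2.52% and 2.47% were lower there, in the same order. The counts higher were 1 in GSK-J4, 1 in GSK343, 0 in rapamycin, 2 in SAHA, 0 in UNC1215 and 0 in VPA. Of all genes 6.33%, 2.19%, 0.812%, 5.69%, 1.03% and 0.89% were higher there, in the same order. In BRD4770, NR1D1 then fell under 2-fold, at 0.97 on the log2 scale. Smaller moves of a count are not all listed here. The shares of all genes under the other pseudocounts, scalings and filters are not given, so those counts cannot be set against a background. For the time split, median centring and TPM scaling each gave 1 gene with the 12 h libraries all above, and the filter at 5 FPKM removed CRY2, leaving 0 below. The cause of the other moves was not tested. Of 513 values of single libraries under alternatives, 149 moved by more than the SD of the 2 DMSO libraries, and of those at least 2-fold from DMSO 0 changed sign. Absolute depth is unknown, which limits what can be said of PER2 and of DBP in GSK-J4.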
